A study of Bos taurus with 7 samples.

Results

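The miR-29 family was measured in plasma of Japanese-Black cows (Bos taurus) on day 21 after artificial insemination. Its members bta-miR-29a, bta-miR-29b and bta-miR-29c are 3 of the 744 bovine miRNAs on a 1-colour Agilent array, taken by name from the rows that are not control spots. There were 4 cows labelled pregnant (numbers 1 to 4) and 3 labelled non-pregnant (numbers 1, 3 and 4). All were inseminated in a controlled estrus and bled on the same day after it. Each cow, a separate animal as far as the labels say, had an array of its own, and the labels give no age. All 7 arrays came from 1 slide and 1 scan day. Slide row 1 held the pregnant cows and row 2 the others, and slide row and pregnancy therefore cannot be told apart. The software called between 45 (non-pregnant 1) and 101 (pregnant 3) miRNAs detected per array, and 124 miRNAs on at least 1 array.

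The miR-29 family is known for repressing genes of the extracellular matrix, above all those of collagens and elastin, and enzymes that write and remove DNA methylation. A miRNA finds its messages mainly through its seed, the stretch from base 2 to base 8. The members share the seed and differ in the bases behind it. In mammals they come from a pair of clusters, with miR-29a beside one copy of miR-29b and miR-29c beside another, so the mature miR-29b can come from either. Plasma miRNAs leave blood cells and tissues in vesicles or bound to proteins.

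Each member was read by a pair of probes, DNA strands complementary to the miRNA that differ from each other by 1 base at the 3′ end, and each probe by 10 spots per array. The probes are printed 5′ to 3′ as the scanner files give them, because the family's measurements differ between the probes of a pair and between near-identical members. Capitals mark the bases complementary to the seed AGCACCA, as far as the probe reaches into it.
miR-29a, 20 bases: taaccgatttcagaTGGTGC
miR-29a, 19 bases: taaccgatttcagaTGGTG
miR-29b, 21 bases: aacactgatttcaaaTGGTGC
miR-29b, 20 bases: aacactgatttcaaaTGGTG
miR-29c, 22 bases: taaccgatttcaaaTGGTGCTa
miR-29c, 21 bases: taaccgatttcaaaTGGTGCT
miR-29d, 20 bases: taatcgatttcaaaTGGTGC
The last line is the longer probe of miR-29d, a related bovine miRNA outside the 3 members, shown because it is nearly the same sequence. Counted from 1 at the 5′ end over 20 shared bases, the miR-29a probe differs from the miR-29c probe by A13G alone, and the miR-29d probe differs from the miR-29c probe by C4T alone. Signals of miR-29a and miR-29c are therefore uncertain as separate measurements. On the array design's assembly UMD 3.1, whose mapping names no strand, the longer miR-29a probe lies at chr4:95402363-95402381. The longer miR-29c probe lies at chr16:77478647-77478667. These mapped spans are 19 and 21 bases, each 1 base shorter than its probe. The longer miR-29b probe is mapped to both chr4:95402746-95402766 and chr16:77478086-77478106, so its signal cannot be assigned to a locus. In RefSeq's annotation of ARS-UCD2.0, MIR29A and its neighbour MIR29B-1 overlap LOC107131356, a long non-coding RNA gene. MIR29B-2 and its neighbour MIR29C overlap no listed gene and lie between CD34 and CD46.

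miR-29a was called detected in all 7 cows. The mean signal of its 20-base probe, in fluorescence units after background subtraction and with no scaling between arrays, was 34.4, 39.8, 57.0 and 40.9 in pregnant 1 to 4 and 12.6, 26.5 and 20.1 in non-pregnant 1, 3 and 4. Every pregnant cow lay above every non-pregnant cow, with pregnant 3 highest and non-pregnant 1 lowest. The means were 43.0 ± 9.74 (SD, n = 4) and 19.7 ± 6.97 (SD, n = 3). Of the spots without an outlier flag, 36 of 37 were well above background in pregnant and 26 of 27 in non-pregnant cows.

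By its mean signal the 19-base probe of miR-29a did not separate the groups. Its mean signal was 7.88, 9.39, 14.3 and 4.58 in pregnant 1 to 4 and -0.173, 5.92 and 2.84 in non-pregnant 1, 3 and 4. The value of pregnant 4 lay below that of non-pregnant 3, and its spots scattered most, from -5.97 to 10.9 (SD 6.56 over 10 spots). By the median of its spots this probe did separate the groups. The medians were 7.63, 9.14, 14.2 and 7.31 in pregnant 1 to 4 and -0.216, 6.34 and 3.09 in non-pregnant 1, 3 and 4. Medians are given for this probe alone, and how many other miRNAs separate the groups by them was not counted. Pregnant 4 also scattered on the 20-base probe (SD 17.9, lowest spot -1.72) and had the most outlier-flagged spots of the arrays (1149). The 19-base probe had 21 of 38 spots well above background in pregnant and 3 of 30 in non-pregnant cows. It counted toward the detection call in pregnant 1, 2 and 3 and in non-pregnant 3, whereas the 20-base probe counted in all 7.

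miR-29c was called detected in all pregnant cows and in non-pregnant 3 and 4. The mean signal of its 22-base probe was 6.02, 11.8, 7.02 and 14.4 in pregnant 1 to 4 and 1.38, 5.92 and 5.90 in non-pregnant 1, 3 and 4. Pregnant 2 and 4 stood apart at the top, while pregnant 1 exceeded non-pregnant 3 by less than the SD of either array's spots (2.12 and 1.05). The means were 9.81 ± 3.96 (SD, n = 4) and 4.40 ± 2.61 (SD, n = 3). The 21-base probe was at 4.64, 9.48, 6.31 and 8.63 against -0.00352, 3.48 and 4.93, with pregnant 1 below non-pregnant 4. None of the 58 spots of either probe was well above background in a non-pregnant cow, against 31 of 74 in pregnant cows. On the 22-base probe these were 10 of 10 spots in pregnant 2, 8 of 8 in pregnant 4, 3 of 10 in pregnant 1 and 0 of 10 in pregnant 3.

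The signal of miR-29b came from a single probe of its pair. The 21-base probe had a mean signal of 5.74, 9.51, 8.59 and 7.27 in pregnant 1 to 4 and 1.95, 4.80 and 3.17 in non-pregnant 1, 3 and 4. Every pregnant cow again lay above every non-pregnant cow, and pregnant 1 and non-pregnant 3 were the closest. The means were 7.78 ± 1.64 (SD, n = 4) and 3.31 ± 1.43 (SD, n = 3). The 20-base probe, which lacks the last C, ran from -1.18 to 0.461 in pregnant and from -1.73 to 0.662 in non-pregnant cows. It had no spot well above background on any array. Negative control spots, read the same way, had means between 1.76 and 2.85 per array with SDs between 1.40 and 1.72. The 20-base probe thus lay below the mean of the negative controls on every array, and the 21-base probe lay above it on all but non-pregnant 1.

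**Figure D1:**
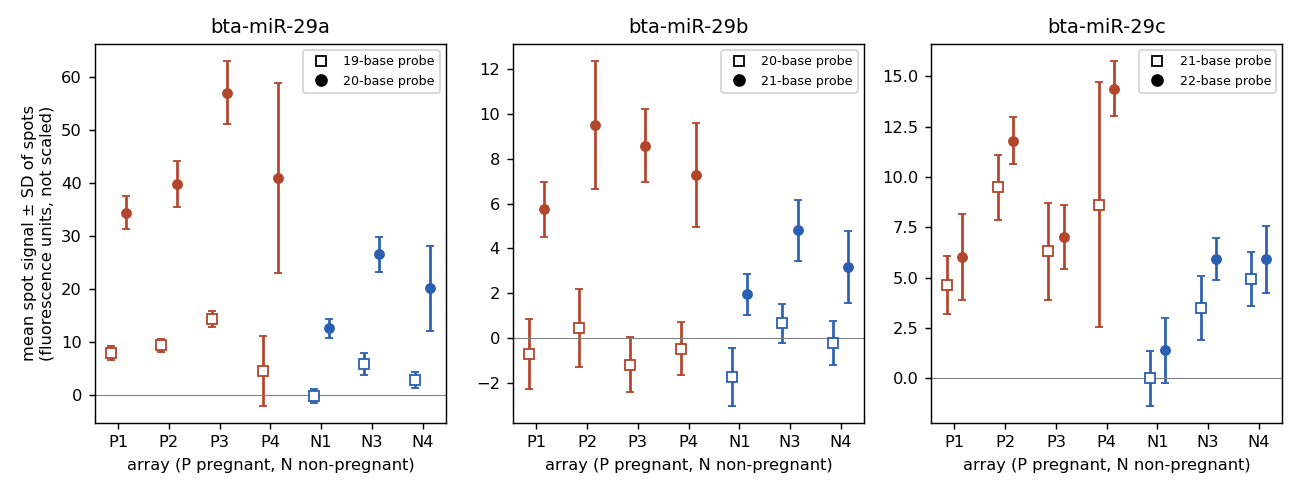
Mean spot signal of each probe per array in fluorescence units, background-subtracted and not scaled between arrays, for miR-29a, miR-29b and miR-29c. Circles are the longer and squares the shorter probe, bars the SD over the spots of that array, P pregnant and N non-pregnant. The longer probe of each member is higher on all 4 pregnant arrays than on all 3 non-pregnant arrays, and the shorter miR-29b probe stays near 0.

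The longer probes of all 3 members thus separated the groups. The longest probe did so for 14 of 88 tested miRNAs, the members included (15.9%), and for none in the opposite direction. The longest probe was chosen as a measure after the data were seen. miR-29b was among the tested miRNAs through its calls in pregnant cows alone. The exact permutation test over the 35 splits of the 7 arrays into 4 and 3, two-sided and adjusted by Benjamini-Hochberg over all 88 miRNAs, passed for no member. At least 51 of the 88 would need the smallest p for any to pass, so this design could hardly give a call. For the longer probes the exact permutation test gave p = 0.0286 for miR-29a (the smallest the design allows), p = 0.0571 for miR-29b and p = 0.143 for miR-29c, with adjusted p-values of 0.419, 0.419 and 0.484. Over the spots of both probes, the differences between pregnant and non-pregnant cows were 14.9, 2.16 and 4.91 units (exact permutation p = 0.0286, 0.0857 and 0.0857, all adjusted p = 0.419). On that measure miR-29a alone separated the groups, as did 11 of the 88 miRNAs (12.5%). With the median of those spots, the exact permutation test gave p = 0.114 (miR-29a), 0.229 (miR-29b) and 0.114 (miR-29c). The adjusted p-values were then 0.718, 0.79 and 0.718. These signals are not scaled, and 82 of the 88 miRNAs (93.2%) had a higher unscaled mean in pregnant cows. Divided by each array's 75th percentile, the longest probe separated the groups for 3 of 88 miRNAs (3.41%), which were miR-142-5p, miR-149-3p and miR-361 and no member.

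The detection call of miR-29b turned on small distances from the software's limit. The software computes a signal and an error per probe, counts a probe whose signal exceeds 3 times its error, sums the counted probes and sets the miRNA to 0.1 where none counts. This rule, re-derived from the deposited probe values, gave the deposited call for all 5208 combinations of miRNA and array. For miR-29b the 21-base probe alone decided. Its signal over error was 3.47, 4.74, 4.03 and 3.23 in pregnant 1 to 4, and 1.06, 2.95 and 1.81 in non-pregnant 1, 3 and 4. All pregnant cows were over the limit and all non-pregnant cows under it. As a mean over spots, the limit was 4.88 units in non-pregnant 3, where the probe had 4.80, and 4.96 in pregnant 1, where it had 5.74. In pregnant 4, the array with the largest additive error, the limit was 6.76 and the probe had 7.27 over 9 of its 10 spots. With the outlier spot kept, the mean of pregnant 4 was 6.48, under the limit that the deposited error sets.

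**Figure D2:**
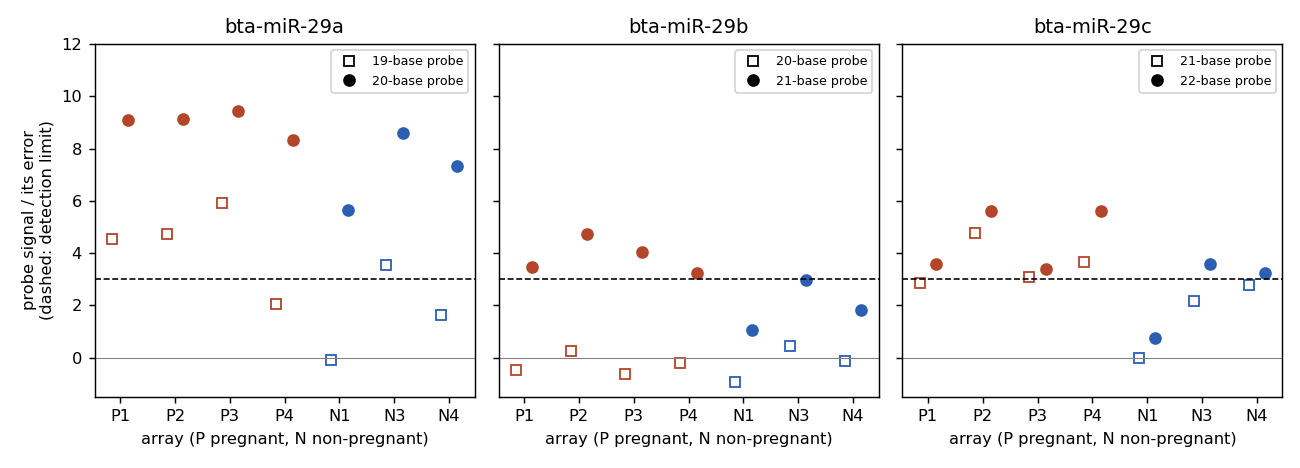
Probe signal divided by its error on each array for the longer (circles) and shorter (squares) probe of each member, with a dashed line at the detection limit of 3. For miR-29b the 21-base probe is over the line in all 4 pregnant cows and under it in all 3 non-pregnant cows, with pregnant 4 (3.23) and non-pregnant 3 (2.95) closest to it.

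miR-29b was the single miRNA called detected in all pregnant and no non-pregnant cow, 1 of the 124 detected at least once (0.806%). That separation held at the multiple of 3 and not at the others tried. With a limit of 2 or 2.5 times the error, miR-29b was detected in all pregnant cows and in 1 non-pregnant cow. With 3.5 or 4 times it was detected in 2 of 4 and 0 of 3, and at 4 times miR-23a was the single miRNA that separated the groups. miR-29a was detected in all 7 cows at every multiple. miR-29c went from 4 of 4 and 2 of 3 at 2, 2.5 and 3 times to 2 of 4 and 0 of 3 at 4 times. These other multiples were chosen after the data were seen, and miRNAs outside the family and the lists are named after their values were seen.

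The spots of the 21-base miR-29b probe overlapped between the groups, and the software's spot flags did not follow its detection call. Spots ran from 4.37 to 7.58 in pregnant 1, 5.10 to 13.0 in pregnant 2, 7.09 to 11.6 in pregnant 3 and 3.59 to 10.3 in pregnant 4. They ran from 0.490 to 3.14 in non-pregnant 1, 3.05 to 6.82 in non-pregnant 3 and -0.442 to 5.28 in non-pregnant 4. All spots of pregnant 3 and 2 of 8 of pregnant 1 exceeded the highest spot of non-pregnant 3. The spots flagged as well above background numbered 0 of 8, 7 of 10, 3 of 9 and 0 of 9 in pregnant 1 to 4, and 0 of 30 over the non-pregnant cows. By the weaker flag of a positive and significant signal, all spots passed in each pregnant cow, as did 5 of 10, 10 of 10 and 9 of 10 in non-pregnant 1, 3 and 4.

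**Figure D3:**
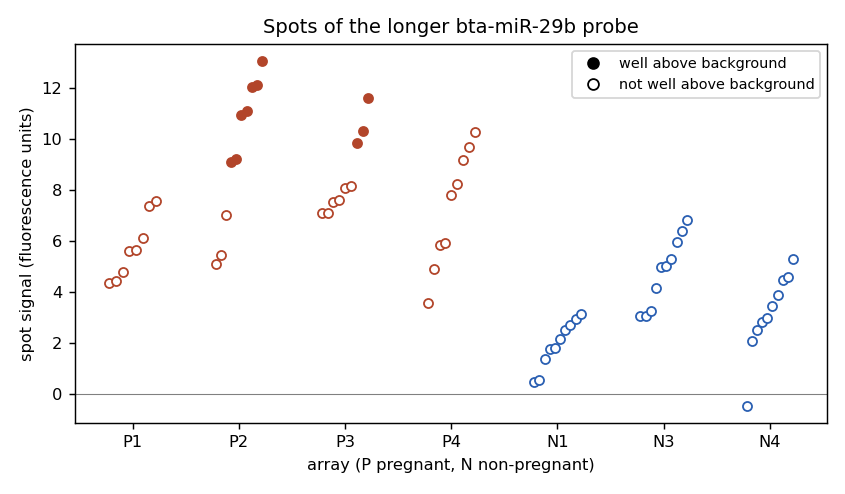
Signal of each spot of the 21-base miR-29b probe per array in fluorescence units, outlier spots left out, sorted within the array. Filled circles were flagged as well above background, which holds for 7 of 10 spots in pregnant 2 and 3 of 9 in pregnant 3 and for no spot of the other 5 arrays.

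The flag for spots well above background used a limit of its own on each array. The lowest flagged spot was at 7.76, 8.74, 9.73 and 10.6 units in pregnant 1 to 4 and at 9.23, 7.78 and 8.58 in non-pregnant 1, 3 and 4. Pregnant 4 had no flagged miR-29b spot, yet 5 of its 9 spots were brighter than the lowest flagged spot of non-pregnant 3. Over all miRNAs, 55 of 585 detected calls (9.40%) had no spot well above background, as did miR-29b in pregnant 1 and 4 and miR-29c in non-pregnant 3 and 4. The number of such calls per array ran from 4 (non-pregnant 1) to 13 (pregnant 4), so these calls of miR-29b and miR-29c stand among a minority of dim ones.

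As signal per miRNA, the value that the authors also deposited on a log2 scale, miR-29a was at 28.1, 32.7, 47.3 and 27.1 in pregnant 1 to 4 and at 8.37, 21.5 and 13.3 in non-pregnant 1, 3 and 4. miR-29c was at 3.99, 14.2, 8.84 and 15.3 against 3.93 and 3.92 in non-pregnant 3 and 4. It was at the software's 0.1 in non-pregnant 1, where neither probe counted. The miR-29c sum held both probes in pregnant 2, 3 and 4 and the 22-base probe alone in pregnant 1 and non-pregnant 3 and 4. In pregnant 1 its 21-base probe stood at 2.86 times the error and was left out, and in pregnant 3 the same probe stood at 3.07 times and was added. miR-29b was at 3.81, 6.31, 5.70 and 4.83 in pregnant cows, always from the 21-base probe, and at the software's 0.1 in the others. Differences in this value thus combine the probes' brightness with how many probes counted.

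After scaling between arrays, the differences of the 3 members did not pass the test. Spot means were divided by the array's 75th percentile over 57 probes well detected on all arrays, raised to a common floor (log2 -6.36) and averaged over the probes on the log2 scale. miR-29a was then at -5.20, -4.52, -5.61 and -4.85 in pregnant 1 to 4 and at -5.07, -5.84 and -5.86 in non-pregnant 1, 3 and 4. The groups overlapped, with non-pregnant 1, the array with the smallest divisor, above pregnant 1 and 3. On this scale 1 of 88 miRNAs (1.14%) separated the groups, miR-142-5p. The level was -5.04 ± 0.47 (SD, n = 4) against -5.59 ± 0.45 (SD, n = 3), a log2 difference of 0.54 with a standard error of 0.32 and a 95% interval from -0.24 to 1.32 (limma, adjusted p = 0.743 over 88 miRNAs). miR-29c differed by 0.53 with a standard error of 0.33 (limma, adjusted p = 0.743), and miR-29b by 0.17 with a standard error of 0.13 (limma, adjusted p = 0.743). limma called 0 of 88 miRNAs (0%), with 1, miR-2436-5p, at an unadjusted p under 0.05, and 62 of 88 (70.5%) had a positive difference with a median of 0.175. With normexp background correction the differences of miR-29a, miR-29b and miR-29c turned to -0.077, -0.25 and -0.18, and the median of all miRNAs to -0.185. Each of these 3 differences had a standard error of 0.422. This correction added an offset of 50 units to each spot, more than the mean signal of any miR-29b or miR-29c probe. In the other settings the difference ran from 0.32 to 1.30 for miR-29a, 0 to 0.86 for miR-29b and 0.081 to 1.54 for miR-29c, none of them past the test.

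**Figure D4:**
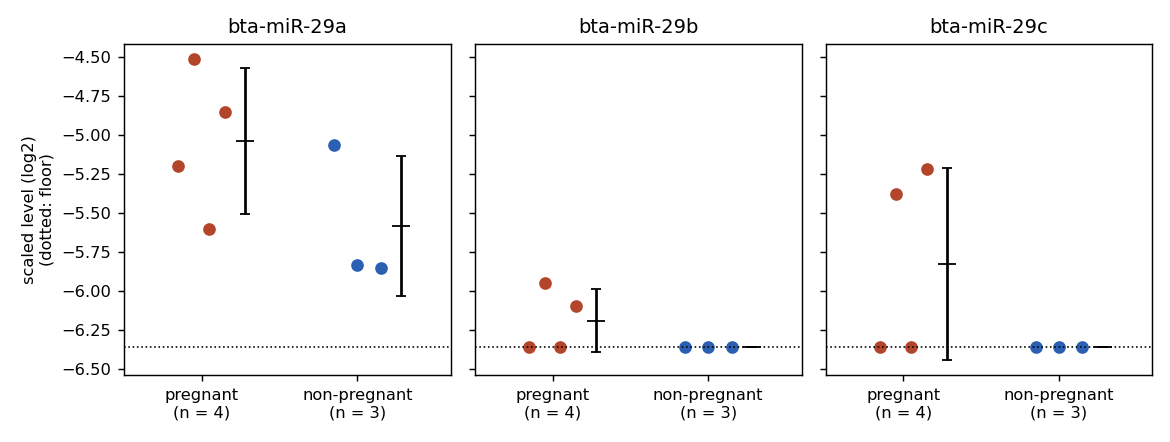
Scaled log2 level of each member per cow, with the group mean ± SD beside the points and a dotted line at the floor of log2 -6.36. miR-29a overlaps between the groups, while miR-29b and miR-29c are at the floor in pregnant 1 and 3 and in the 3 non-pregnant cows.

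The floor decided much of what the scaled levels of miR-29b and miR-29c can show. Both stood at it in each non-pregnant cow and in pregnant 1 and 3, so their differences could not be negative. Because the divisors ran from 172 (non-pregnant 1) to 1645 (pregnant 3), the common floor stood for 2.10 spot units in non-pregnant 1 and 20.1 in pregnant 3. On pregnant 3, 1 of the 6 member probes, the 20-base probe of miR-29a, was above the floor, although 3 spots of miR-29b were well above background there. The shorter probe of miR-29a lay below the floor in pregnant 3 and 4 and in every non-pregnant cow. On those arrays the miR-29a level was thus partly set by the floor. The miR-29a difference of 0.54 became 0.96 with the floor halved and 0.43 with it doubled. A probe with over 50% of its spots well above background was present for miR-29b in 1 of 4 pregnant and for miR-29c in 2 of 4 pregnant cows, and for neither in a non-pregnant cow. No fold is given for them, since a bound on it came out under 1 for both.

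miR-29d and miR-29e were not called detected in any cow. The longer miR-29d probe, with 1 base unlike the miR-29c probe and 2 (C4T and G13A) unlike the miR-29a probe, had mean signals between -2.57 and -0.282 over the 7 arrays. It had no spot well above background, also on pregnant 3 with the brightest miR-29a. The probes of miR-29e reached at most 0.95 times the error in pregnant cows and 1.20 times in non-pregnant 4, with 1 spot well above background, in pregnant 1.

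Among the 39 other miRNAs detected on all arrays, the scaled levels most like that of miR-29a over the 7 arrays were those of miR-25 (Pearson r = 0.971), miR-451 (r = 0.959), the main miRNA of red cells, and miR-19b (r = 0.924). These values share the arrays' divisors and the common floor, and are a description of 7 arrays. All were highest in pregnant 2 and 4. The level of miR-451 stood at the floor in pregnant 3 and non-pregnant 4.

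Other miRNAs described as acting in fibrosis, a setting in which miR-29 is studied, were looked at beside the members. Of 31 on the array, 9 (29.0%) were detected in at least 1 cow, beside 124 of all 744 (16.7%). Of these, 5 were tested and none passed. All 5 had a positive scaled difference, beside 62 of all 88 tested miRNAs (70.5%). Their median was 0.47, beside 0.175 over all 88. They were miR-15a (0.51), miR-15b (0.49), miR-30d (0.47), miR-16b (0.38) and miR-192 (0.13), of which miR-15a and miR-16b are also red-cell miRNAs. The levels of miR-15b and miR-192 lay at the floor in every non-pregnant cow, which left no room for a negative value. miR-192 was tested through its calls in 3 pregnant cows alone. The shared sign and the median therefore depend in part on the floor and on the choice of tested miRNAs. Among 9 miRNAs tied to DNA methylation enzymes, miR-148a and miR-185 were detected in 1 pregnant cow each and miR-26b in 2, and none could be tested.

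miRNAs known from blood cells and liver were summed for comparison. The summed software signal of the 6 red-cell miRNAs was 132 to 191 in pregnant and 52.2 to 141 in non-pregnant cows, with miR-144 not detected in any cow. For the 7 leukocyte miRNAs it was 143 to 423 and 55.9 to 170, with miR-142-3p, miR-146a, miR-146b and miR-155 not detected in any cow. For the 8 platelet miRNAs it was 65.0 to 103 and 30.6 to 57.9. Of these, miR-21-3p, miR-21-5p, miR-126-5p, miR-191 and the entry miR-24 were not detected in any cow. miR-126-3p was detected in 1 pregnant cow alone, so the platelet sum was mainly that of miR-24-3p and miR-197. For the liver pair miR-122 and miR-192 the summed signal was 0 to 51.2 and 3.26 to 21.9. These sums are not scaled, and of the platelet miRNAs tested after scaling, miR-24-3p differed by 0.67 and miR-197 by -0.17, neither past the test. The leukocyte miRNAs miR-142-5p and miR-223 differed by 1.17 and 1.13 after scaling. The 5 tested red-cell miRNAs differed by 0.24 to 0.51, and miR-122 and miR-192 by 0.33 and 0.13. None of these passed the test. The part of blood cells or of array brightness in the higher unscaled miR-29 signals was not tested.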

How the data were processed

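The scanner software was Agilent Feature Extraction 11.0.1.1, per the file headers. The deposited intensity per spot is background-subtracted within the array and not scaled between arrays. The deposited log2 table equals log2 of the software's intensity per miRNA plus 3.32 for its 730 matched names and is blank where a miRNA was not detected. No source used here explains that constant. Plasma RNA was labelled with Cy3, per the labels' protocols.

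Outlier-flagged spots (558 to 1149 of 14880 per array, control spots apart) were left out. miRNAs called detected on at least 3 of 7 arrays were tested with limma 3.58.1 (R 4.3.3, Benjamini-Hochberg threshold 0.05) on scaled levels, and with a two-sided exact permutation test on unscaled spot means. The limma fit was tested on simulated data without a floor and with changes larger than the differences of the members. That simulation does not tell what could be found at the members' size of difference. The few arrays limit the precision. The cows' numbers 1, 3 and 4 were not taken as pairs, since the labels state no pairing. Members, lists and rules were chosen with earlier results of these data known. The rule for named miRNAs took the 3 members, the 3 miRNAs most like miR-29a and the tested members of the lists. Alternatives changed scaling, background, floor, filter, spots and arrays.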

Additional observations from a re-analysis of the deposited data

Results flagged for a closer look

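Of 15 sets of values from the 4 pregnant cows, 1 had a cow far from the rest, where chance alone gives about 1 in 20 sets. The mean spot signal of miR-29a over both probes was 35.7 in pregnant 3 against 21.8, 23.7 and 21.8 in pregnant 1, 2 and 4, a gap of 0.86 of the range. Pregnant 3 also had the largest scaling divisor (1645), and after scaling its miR-29a level was the lowest of the pregnant cows. Without pregnant 3 the difference in spot signal was 11.6 in place of 14.9 (exact permutation p = 0.10, the smallest that 3 against 3 allows).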

How the results depend on the processing

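The count of miRNAs past the limma threshold was 0 in all 12 other settings and with each array left out, where 0 to 11 had an unadjusted p under 0.05. With normexp background correction and its offset of 50 units the scaled differences were -0.077 (miR-29a), -0.25 (miR-29b) and -0.18 (miR-29c). With the floor doubled that of miR-29b was 0. The cause was not tested for normexp. In the other settings that gave a value the differences stayed positive and did not pass, but their sizes moved by over 1.5 times. They ran from 0.32 (quantile scaling) to 1.30 (deposited table) for miR-29a, 0.015 (quantile scaling) to 0.86 (software's signal) for miR-29b and 0.081 (floor doubled) to 1.54 (software's signal) for miR-29c. Leaving out each array in turn, they ran from 0.37 to 0.80 (miR-29a), 0.088 to 0.23 (miR-29b) and 0.33 to 0.71 (miR-29c), with counts of 0 to 0. The unscaled spot differences then ran from 11.6 to 17.1, 1.48 to 2.79 and 3.46 to 5.96 units. The spot differences stayed positive in the 5 other settings, 1 of which divided the signals by the 75th percentile. Over these 5 settings the exact permutation p ran from 0.0286 to 0.114 (miR-29a), 0.0571 to 0.514 (miR-29b) and 0.0571 to 0.229 (miR-29c). miR-29b was detected in 3 more pregnant than non-pregnant cows at 2 or 2.5 times the error, 2 more at 3.5 or 4 times and 1 more by spots well above background, in place of 4 more; these detection limits and the longest probe alone were chosen after seeing the data. Taking cow number as a replicate block gave 0.37, 0.088 and 0.38. The deviations of same-numbered cows had correlations of 0.094, 0.646 and -0.201 for numbers 1, 3 and 4. These values neither establish nor exclude pairing, and the numbers were not taken as pairs. miR-29b had no non-pregnant value in the deposited table, and miR-29b and miR-29c none under the filter on all 7 arrays. The slide could not be a block, as there was 1 slide. Signals of miR-29b and miR-29c lie near background, which limits the size of their differences.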
